A study of Cuscuta campestris with 9 samples.

Results

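The comparison set RNA treated with RppH against RNA treated with a decapping enzyme (Dcp) in haustoria of Cuscuta campestris (dodder), a parasitic plant that enters its host through these organs. It used 6 of the 9 libraries of the study, 3 after RppH and 3 after Dcp, and 3 libraries of untreated RNA stood beside them as background. All groups came from the wild-type strain "Dotti", with no transgene or mutation named in the labels. The plants grew on beets, and shoot tips of 4 to 6 cm were pressed on 3% agar under far-red light for 4 days, so the haustoria formed without a host. RNA from the dissected regions gave 3 numbered RNA samples, and each was divided over RppH, Dcp and no enzyme. Libraries with the same number therefore hold the same RNA. Whether these RNA samples are separate plants is not in the labels, so p-values measure the spread between these libraries only.

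Loci were the units of description. Counts of pre-tRNA transcripts were summed per tRNA gene, and each deposited interval was a locus of its own for microRNA primary transcripts and spliceosomal snRNA. Of 716 loci in the table, 348 had at least 10 counts over the 6 libraries: 262 of 496 tRNA genes, 68 of 126 microRNA loci and 18 of 94 snRNA loci. The table itself names the snRNA class as capped and the microRNA class as induced at the host interface. Tissue identity could not be checked, since the table holds no marker genes of haustoria other than these microRNA loci.

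The 5′ end of an RNA records how it was made. A new transcript begins with a triphosphate. RNA polymerase II transcripts, among them U1, U2, U4 and U5 snRNA and most microRNA precursors, receive a cap while they are being made. RNA polymerase III transcripts such as pre-tRNAs keep the triphosphate until RNase P removes the leader and leaves a monophosphate. The ligation used here accepts monophosphates only. Per the labels' protocols, Dcp opens capped ends, and an RNA gained with RppH but not with Dcp is read as a probable triphosphate. A locus whose level is alike after both enzymes and above the untreated level is called cap-like here. A locus far higher after RppH than after Dcp is called triphosphate-like. The RppH to Dcp ratio alone does not tell a cap-like locus from one already ligated in untreated RNA. These are names for the readout, not chemical assignments.

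The recovered library totals were 27459027, 24974484 and 33362911 after RppH, in the order of RNA samples 1 to 3, and 25660226, 40828047 and 29011242 after Dcp. The loci held 20981, 13578 and 34529 counts after RppH, 13840, 18369 and 10843 after Dcp and 1011, 645 and 630 in untreated libraries. TPM is the deposited value, a count scaled by the library total with no correction for length. What that total counts is not stated in the labels or the table, and each TPM and each call that follows is relative to it.

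Pre-tRNA was several times higher after RppH than after Dcp in every RNA sample. Its total was 241, 173 and 291 TPM after RppH and 45.6, 33.2 and 28.5 TPM after Dcp, against 21.9, 13.1 and 21.99 TPM in untreated RNA. All 3 RppH libraries stood above all 3 Dcp libraries, and within RNA samples 1 to 3 the ratios were 5.28, 5.21 and 10.2. MicroRNA transcripts totalled 77.6, 60.1 and 140 TPM after RppH and 28.6, 20.5 and 7.38 TPM after Dcp, against 1.60, 0.608 and 1.17 TPM untreated. Their groups did not overlap either, but the ratios were uneven, at 2.71, 2.93 and 19.0. Spliceosomal snRNA totalled 446, 311 and 604 TPM after RppH and 465, 396 and 338 TPM after Dcp, against 0.992, 0.282 and 0.681 TPM untreated. Here the groups overlapped, and the ratio was 0.959, 0.784 and 1.79.

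On the log2 scale the mean difference of RppH over Dcp was 2.71 for pre-tRNA, 2.41 for microRNA and 0.14 for snRNA, with SDs over the 3 RNA samples of 0.56, 1.59 and 0.62. The exact two-sided permutation p was 0.1, 0.1 and 0.7, and 0.1 is the smallest that 3 against 3 libraries allow. With the RNA sample as a block, the exact test over the 3 pairs gave p = 0.25, 0.25 and 1, where 0.25 is the smallest possible. As a share of the listed counts instead of the library total, snRNA was lower after RppH (log2 difference −0.61, exact permutation p = 0.1). Without RNA sample 3 the snRNA difference was −0.21 and the microRNA difference 1.49, against 2.41 over all 3 RNA samples.

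**Figure D1:**
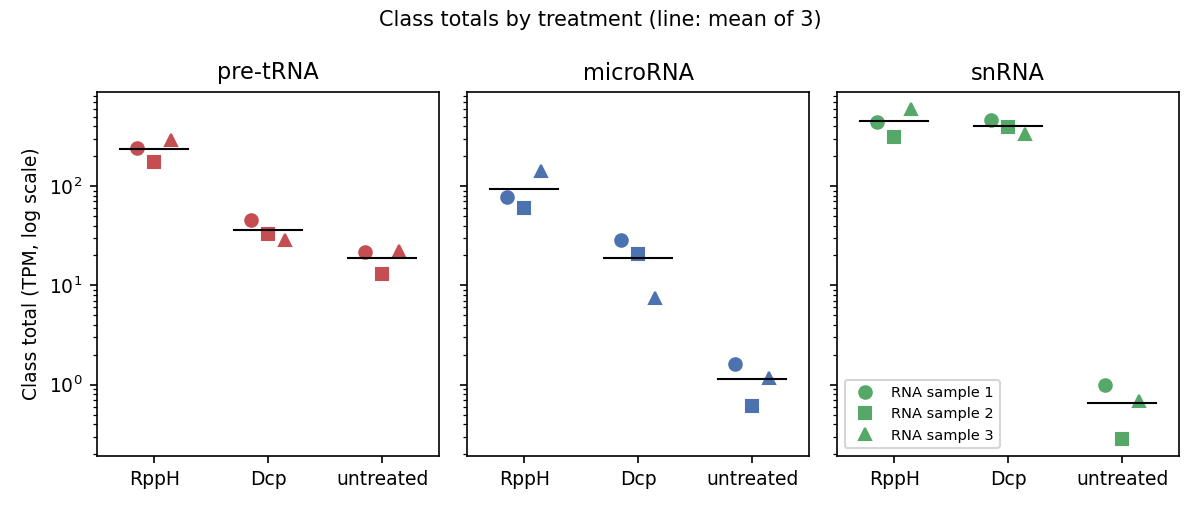
Class total in TPM (log axis) for each library, by treatment, with 1 symbol per RNA sample and a line at the mean of 3. RppH lies above Dcp for pre-tRNA and microRNA in each RNA sample, while the snRNA groups overlap at 311 to 604 TPM after RppH and 338 to 465 TPM after Dcp.

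Set against the untreated background, Dcp recovered a small part of what RppH recovered for pre-tRNA. The gain over untreated RNA after Dcp was 10.8%, 12.6% and 2.42% of the gain after RppH in RNA samples 1 to 3. For microRNA transcripts it was 35.6%, 33.4% and 4.46%, and for snRNA 104%, 128% and 55.9%. The share was lowest in RNA sample 3 for each class. The single most abundant tRNA gene, tRNA14-AlaTGC on scaffold 16, held 26.3% of the pre-tRNA counts of the 6 libraries. Without it the pre-tRNA shares were 10.9%, 9.51% and 1.71%.

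Ratios between classes within a library do not depend on the library total. For every 100 snRNA counts there were 54.0, 55.6 and 48.2 pre-tRNA counts after RppH and 9.80, 8.37 and 8.44 after Dcp. The RppH to Dcp ratio of this quantity was 5.50, 6.64 and 5.71 in the 3 RNA samples. It had a mean log2 of 2.57 (SD 0.14, n = 3, exact permutation p = 0.1, higher in 3 of 3 RNA samples). With the most abundant locus of each class left out, the mean log2 was 3.32 (exact permutation p = 0.1). MicroRNA counts per 100 snRNA counts were 17.4, 19.4 and 23.2 after RppH and 6.16, 5.17 and 2.18 after Dcp. Their ratio was 2.82, 3.74 and 10.6, with a mean log2 of 2.27 (SD 1.01, n = 3, exact permutation p = 0.1). The ratio of pre-tRNA to microRNA counts was 3.10, 2.87 and 2.07 after RppH and 1.59, 1.62 and 3.86 after Dcp. It was higher after RppH in RNA samples 1 and 2 and lower in RNA sample 3, and the difference did not pass (mean log2 0.30, SD 1.04, n = 3, exact permutation p = 0.6). Without the most abundant locus of each class the mean log2 of this ratio was 0.92 (exact permutation p = 0.1).

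**Figure D2:**
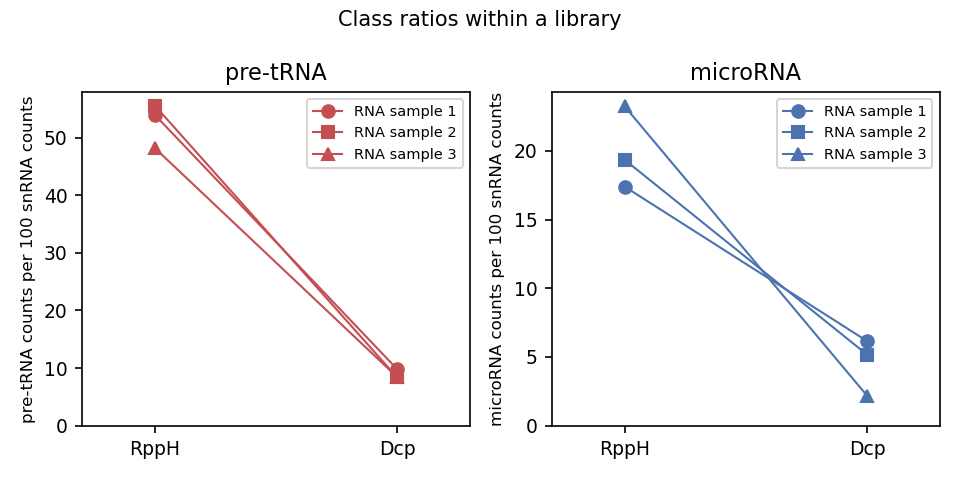
Pre-tRNA counts (left) and microRNA counts (right) per 100 snRNA counts of the same library, joined by RNA sample. Pre-tRNA falls in the ranges 48.2 to 55.6 after RppH and 8.37 to 9.80 after Dcp, and for microRNA RNA sample 3 has both the highest RppH value, 23.2, and the lowest Dcp value, 2.18.

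Locus by locus, the excess after RppH was spread over many tRNA genes and some microRNA loci, and no snRNA copy passed. RppH was higher than Dcp at 88 of 348 loci (percent called 25.3) and lower at 0, by edgeR's quasi-likelihood test with the RNA sample as a block and Benjamini-Hochberg adjustment over all 348 loci at 0.05. No locus was lower at an unadjusted p under 0.05, and DESeq2 called 94 higher (percent called 27.0) and 0 lower. The 88 were 76 of 262 tRNA genes (29.0%), 12 of 68 microRNA loci (17.6%) and 0 of 18 snRNA loci. Without the block 232 loci were higher (percent called 66.7) and 0 lower: 188 tRNA genes, 43 microRNA loci and 1 snRNA copy. Without RNA sample 1 or without RNA sample 2, 0 loci were called, with 67 and 61 at an unadjusted p under 0.05, and DESeq2 was not run on those subsets. Without RNA sample 3 the count was 65 (percent called 18.7), of which 61 were among the 88.

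These counts are relative to the library total. With the snRNA total as the library size 101 loci were higher (percent called 29.0) and 0 lower. TMM and median-of-ratios scaling take the loci themselves as the unchanged reference and moved RppH against Dcp by 2.10 and 2.03 on the log2 scale. TMM gave 6 higher (percent called 1.72) and 11 lower (percent called 3.16). Median of ratios gave 16 higher (percent called 4.6) and 10 lower (percent called 2.87). In each, 10 of the lower loci were snRNA. Of 16 called loci named by rule, 4 were still called higher under TMM (tRNA9-SerAGA, tRNA3-AsnGTT, tRNA7-LeuTAG and ccm-MIR12481) and 8 under median of ratios. With a minimum of 30 counts 89 of 180 loci were higher (percent called 49.4), with no filter 72 of 643 (percent called 11.2), and single deposited intervals gave 44 of 426 (percent called 10.3). With the untreated libraries in the fit 64 loci were higher (percent called 18.4), and limma called 157 (percent called 45.1).

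The unblocked fit could also leave out 1 library. Without an RppH library it called 169, 226 and 135 loci higher, for RNA samples 1 to 3 (percent called 48.6, 64.9 and 38.8). Without a Dcp library it called 208, 158 and 141 (percent called 59.8, 45.4 and 40.5). The lowest counts thus came without the libraries of RNA sample 3.

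The minimum of 10 counts could be met by 1 treatment. Of the 348 loci, 235 reached it in the RppH libraries but not in the Dcp libraries, 1 in the Dcp libraries only, 83 in both treatments and 29 only over all 6 libraries. Of the snRNA copies 16 of 18 reached it in both. All 3 RppH libraries stood above all 3 Dcp libraries at 222 loci (percent called 63.8), and the reverse held at 1 (percent called 0.287). The 222 were 184 tRNA genes, 37 microRNA loci and 1 snRNA copy. The median fitted log2 difference was 3.74 over the tested tRNA genes, 2.98 over the microRNA loci and −0.02 over the snRNA copies, against 3.43 over all 348 loci.

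**Figure D3:**
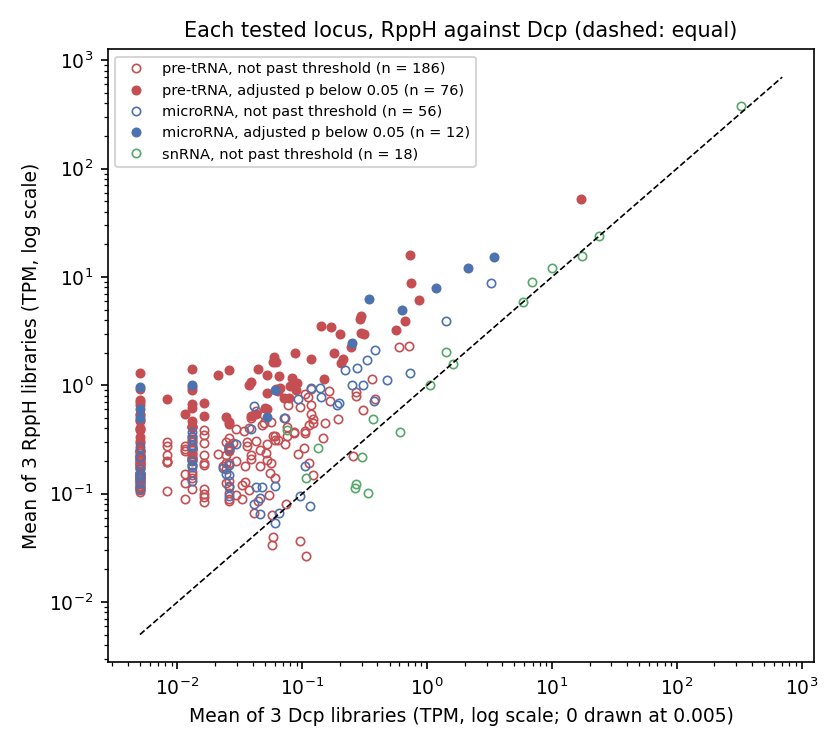
Mean TPM of 3 RppH libraries against mean TPM of 3 Dcp libraries (both axes log) for each of 348 loci, coloured by class. Filled points have an adjusted p below 0.05. Abundant snRNA copies lie along the dashed line of equal values and those of low count on both sides of it, most tRNA genes and microRNA loci lie above it, and loci with 0 Dcp counts stand at the left edge.

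Among tRNA genes the called share differed with the number of counts. Over all counts 76 of 262 passed (29.0%), against 88 of all 348 loci (25.3%). Of those with 10 to 29 counts, 3 of 133 passed (median log2 difference 3.74). With 30 to 99 counts 42 of 93 passed (median 3.67), and with at least 100 counts 31 of 36 (median 3.89). For microRNA loci the numbers were 0 of 34 (median 3.04), 6 of 16 (median 3.81) and 6 of 18 (median 2.37). The called share of microRNA loci was thus no higher at 100 counts or more than at 30 to 99. Most loci reached the minimum through RppH alone, so these medians describe the loci that passed it.

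Among tRNA genes, tRNA9-SerAGA on scaffold 9 (2215136 to 2215245, minus strand), which carries serine, had the lowest adjusted p of all loci. It had 14.5, 13.9 and 19.5 TPM after RppH and 1.01, 0.833 and 0.345 TPM after Dcp, against 0.411, 0.152 and 0.341 TPM untreated. Every RppH library was far above every Dcp library, and the Dcp library of RNA sample 3 was at the level of its untreated partner. Its log2 difference was 4.52 (SE 0.83, back-calculated from the F statistic as are all SEs here, adjusted p = 0.000656 by edgeR, with RppH above Dcp in each RNA sample).

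The asparagine gene tRNA3-AsnGTT on scaffold 90 (858737 to 858833, plus strand) had 9.43, 7.97 and 8.87 TPM after RppH and 1.40, 0.735 and 0.103 TPM after Dcp. The RppH values were close together, and the Dcp values differed widely (log2 difference 3.97, SE 0.93, edgeR adjusted p = 0.00569). For tRNA2-AspGTC on scaffold 321a (150713 to 150802, plus strand), an aspartate gene, values were 4.22, 2.44 and 6.41 TPM after RppH and 0.507, 0.343 and 0.0345 TPM after Dcp. Its log2 difference was 3.99 (SE 1.08, edgeR adjusted p = 0.00771). The arginine gene tRNA1-ArgCCT on scaffold 126 (1387349 to 1387443, plus strand) had 5.46, 4.60 and 8.15 TPM after RppH and 1.36, 0.735 and 0.483 TPM after Dcp (log2 difference 2.88, SE 0.89, edgeR adjusted p = 0.0179, and 0.80 with adjusted p = 0.548 under TMM). In these 3 genes, too, the groups did not overlap, as at 184 of the 262 tested tRNA genes and 222 of all 348 loci.

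Some tRNA genes had no Dcp count. Of the 262 tested, 59 had 0 counts in all Dcp libraries (22.5%), against 71 of all 348 loci (20.4%), and 51 of the 59 had 0 untreated counts as well. The leucine gene tRNA7-LeuTAG on scaffold 28 (580625 to 580722, minus strand) had 45, 17 and 52 counts after RppH and 0 counts after Dcp or untreated. Against a floor of 3 counts over the Dcp libraries it was at least 42.3-fold higher (edgeR adjusted p = 0.00569). Bounds from this floor leave out the spread between libraries. By the same floor, tRNA3-AlaAGC on scaffold 77 was at least 30.8-fold higher, with 31, 6 and 46 counts after RppH. The leucine gene tRNA6-LeuCAG on scaffold 6 was at least 23.7-fold higher, and the proline gene tRNA2-ProCGG on scaffold 119 at least 21.5-fold higher.

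At the other end, tRNA14-AlaTGC on scaffold 16 (2759656 to 2759755, minus strand) had the most counts of any tRNA gene and a moderate ratio. It had 54.95, 32.9 and 70.8 TPM after RppH and 18.5, 14.9 and 17.9 TPM after Dcp, against 14.1, 7.65 and 15.02 TPM untreated. The RppH libraries stood apart, while Dcp lay only somewhat above the untreated level. The log2 difference of RppH over Dcp was 1.57 (SE 0.55, edgeR adjusted p = 0.0321), and the value was 1.56 (adjusted p = 0.363) when RNA sample 1 was left out and 1.78 (adjusted p = 0.313) when RNA sample 2 was, fits in which no locus was called. Under TMM it was −0.53, a call in the lower direction (edgeR adjusted p = 0.00257), and under median-of-ratios scaling −0.46 (adjusted p = 0.468).

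The lowest differences among tRNA genes with at least 50 counts did not pass. For tRNA21-GluCTC on scaffold 10, a glutamate gene, values were 0.619, 0.360 and 0.809 TPM after RppH and 0.195, 0.318 and 0.414 TPM after Dcp, against 0.702, 0.326 and 0.189 TPM untreated. The untreated values overlapped those after both enzymes (log2 difference of RppH over Dcp 0.92, SE 1.16, edgeR adjusted p = 0.515). The log2 difference was 1.34 for tRNA7-LeuCAA on scaffold 43, 1.48 for tRNA8-ArgACG on scaffold 9 and 1.54 for the initiator gene tRNA13-iMetCAT on scaffold 16. Their adjusted p-values in edgeR were 0.341, 0.312 and 0.242.

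By amino acid, the pooled RppH to Dcp ratio of all counts ran from 3.58 for alanine to 21.1 for tryptophan, which had 2 Dcp counts. Leucine, the class whose tRNAs carry a long variable arm together with serine, stood at 19.1, from 1031 counts after RppH and 60 after Dcp. Of its 22 tested genes 10 were called higher, beside called shares of 29.0% over all tested tRNA genes and 25.3% over all loci. Of the 22, 12 had 0 Dcp counts, against 59 of all 262 tested tRNA genes, and these met the minimum through RppH alone. Serine stood at 14.7 with 3 of 19 called, histidine at 14.9 with 3 of 7, and proline at 17.8 with 1 of 5. Low ratios were found for the initiator methionine (4.29, 2 of 8 called) and glutamine (4.33, 1 of 11 called). Alanine had 6 of 11 called (log2 differences −1.32 to 7.59), although its pooled ratio was the lowest. Of the 7075 alanine counts of the 6 libraries, 6296 came from tRNA14-AlaTGC, with a pooled ratio of 3.26. Of the 2320 serine counts, 1464 came from tRNA9-SerAGA, with a pooled ratio of 22.2. The pooled ratios of alanine and serine thus rest largely on 1 gene each. These ratios were not tested against each other, and the genes labelled Sup had 21 counts after RppH and 0 after Dcp.

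Full-length reads also gave the ends of each transcript. The tRNA genes had 2315 forms of 71 to 145 nt, and 287 of 496 genes had a single 5′ end. These numbers cover all genes with no minimum of counts, and 234 of them fell below 10 counts over the 6 libraries. A gene with few counts can show only few ends. Leaving out tRNA14-AlaTGC, the leading 5′ end of each gene held 90.6%, 90.7% and 90.9% of counts after RppH and 89.1%, 94.0% and 84.7% after Dcp. The groups overlapped in this share. For tRNA9-SerAGA the end at 2215239 had 337, 295 and 569 counts after RppH and 14, 25 and 10 after Dcp. A second end 3 nt upstream, at 2215242, had 38, 38 and 56 counts after RppH and 11, 9 and 0 after Dcp.

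The transcripts were longer after RppH. Without tRNA14-AlaTGC their mean length was 88.7 ± 0.327 nt after RppH, 87.0 ± 0.206 nt after Dcp and 85.2 ± 0.990 nt untreated (SD, n = 3 each). No RppH library overlapped a Dcp library (difference 1.73 nt, exact permutation p = 0.1, the smallest possible). The genes that make up the counts differ between treatments, so this length is that of the mixture.

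Within tRNA14-AlaTGC the same 5′ end, at 2759746, held 98.0 ± 0.485% of counts after RppH and 97.8 ± 1.62% after Dcp (SD, n = 3 each), so its forms at that end differ at the 3′ end. Of 15 forms there, 3 separated RppH from Dcp without overlap (82, 83 and 85 nt), and the forms given here were chosen after their values were seen. The 85-nt form made up 12.3 ± 0.570% of counts at this end after RppH, 7.07 ± 2.27% after Dcp and 4.61 ± 1.87% untreated. The 82-nt form went the other way, at 4.84 ± 0.781% after RppH, 11.7 ± 3.17% after Dcp and 8.73 ± 4.59% untreated. The 83-nt form held 3.43 ± 0.272% after RppH and 7.60 ± 2.00% after Dcp. For these 3 forms the exact permutation p was 0.1, the smallest possible and not adjusted over the 15. The 86-nt form overlapped, at 26.4 ± 4.94% after RppH and 18.5 ± 2.91% after Dcp (exact permutation p = 0.2). The pooled ratio of RppH to Dcp was 5.596 for the 85-nt form and 1.41 for the 82-nt form, though all forms share 1 gene and 1 start. The 87-nt form, the most abundant, held 27.0 ± 0.667% after RppH and 29.7 ± 2.21% after Dcp.

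**Figure D4:**
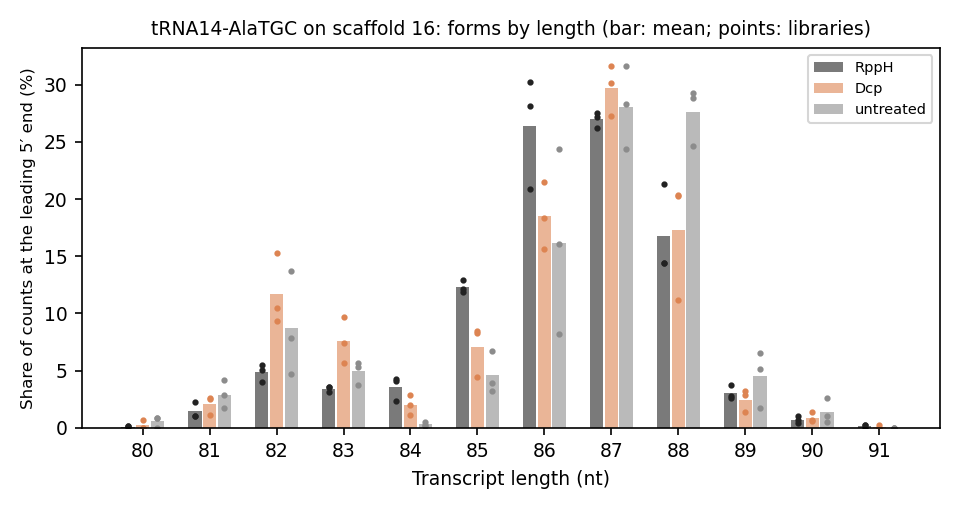
Share of counts at the leading 5′ end of tRNA14-AlaTGC on scaffold 16 by transcript length, for RppH, Dcp and untreated libraries (bars: mean of 3, points: libraries). The 85-nt form is higher after RppH (12.3%) than after Dcp (7.07%), and the 82-nt form is lower (4.84% after RppH, 11.7% after Dcp).

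MicroRNA primary transcripts, from which the precursor hairpins are cut, had fitted log2 differences from −0.67 to 7.73, within the range of tRNA genes, −2.18 to 8.18. Of 39 tested loci with the prefix IIM 7 passed, and of 29 with the prefix MIR 5 passed (17.9% and 17.2%), against 25.3% over all loci. Of the 5 loci with the most counts, the highest difference was at ccm-MIR12481 on scaffold 110 (33486 to 33631, minus strand). It had 6.99, 3.76 and 8.15 TPM after RppH and 0.468, 0.416 and 0.138 TPM after Dcp, against 0.0726, 0.0217 and 0.0757 TPM untreated. Each RppH library was well above every Dcp library (log2 difference 4.21, SE 0.97, edgeR adjusted p = 0.00569). RppH stood above Dcp without overlap at 37 of the 68 tested microRNA loci.

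ccm-IIM-70 on scaffold 190a (485233 to 485375, plus strand) had 6.34, 6.93 and 10.4 TPM after RppH and 1.44, 2.01 and 0.0689 TPM after Dcp (log2 difference 3.19, SE 0.99, edgeR adjusted p = 0.0179). The Dcp value of RNA sample 3 was the lowest, as at each of the 7 microRNA loci with the most counts. ccm-IIM-83 on scaffold 83, chosen after its values were seen as the sixth by counts, had 3.31, 3.56 and 7.91 TPM after RppH and 1.44, 0.392 and 0.0689 TPM after Dcp (log2 difference 3.41, edgeR adjusted p = 0.02). ccm-MIR12463b on scaffold 7 (1050575 to 1050710, plus strand) and ccm-IIM-27 on scaffold 29 passed with smaller log2 differences, 2.22 (SE 0.78) and 2.54 (SE 0.85), at adjusted p-values in edgeR of 0.0321 and 0.0259. Both fell short under TMM scaling, at 0.18 (adjusted p = 0.795 in edgeR) and 0.51 (adjusted p = 0.588), as did ccm-IIM-70 at 1.16 (adjusted p = 0.219).

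Some microRNA loci had counts almost only after RppH. ccm-MIR12487b on scaffold 191 (250352 to 250481, plus strand) had 37, 10 and 39 counts after RppH, 0 after Dcp and 1 untreated, at least 31.9-fold higher. ccm-IIM-98 on scaffold 38 had 4, 15 and 36 counts after RppH and 0 after Dcp, at least 20.4-fold higher. These bounds, too, leave out the spread between libraries. Both loci, and ccm-IIM-12b below, were picked for their high log2 differences. With 0 Dcp counts a locus meets the minimum through RppH alone. ccm-IIM-12b on scaffold 31 had 26, 16 and 48 counts after RppH and 1, 0 and 0 after Dcp (edgeR adjusted p = 0.00745). The locus of the same family number, ccm-IIM-12a on scaffold 7, had 7.03, 6.77 and 12.6 TPM after RppH and 5.26, 3.75 and 0.827 TPM after Dcp, and did not pass (log2 difference 1.62, SE 0.85, edgeR adjusted p = 0.138). The difference between these loci was not tested.

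The lowest ratios among microRNA loci with at least 50 counts came near those of snRNA in some RNA samples. ccm-MIR12490b on scaffold 59 (1863192 to 1863338, minus strand) had 0.692, 0.681 and 2.55 TPM after RppH and 0.896, 0.416 and 0.862 TPM after Dcp, with 0 untreated counts. The groups overlapped, and Dcp was higher in RNA sample 1 (log2 difference 0.64, SE 1.01, edgeR adjusted p = 0.602). Its neighbour ccm-MIR12490a (1855117 to 1855263, minus strand) had 0.692, 0.681 and 2.01 TPM after RppH and 0.740, 0.588 and 0.103 TPM after Dcp (log2 difference 1.20, adjusted p = 0.393 in edgeR). ccm-IIM-93 on scaffold 161a had 3.205, 1.60 and 6.86 TPM after RppH and 1.99, 1.18 and 1.07 TPM after Dcp, with 0 untreated counts (log2 difference 1.25, SE 0.90, edgeR adjusted p = 0.25). ccm-IIM-63b on scaffold 30 had 0.947, 0.801 and 0.420 TPM after RppH and 0.663, 0.220 and 0.241 TPM after Dcp (log2 difference 1.04, adjusted p = 0.432 in edgeR). These 4 loci had 0 untreated counts except for 1 count at ccm-MIR12490a, so their Dcp values stood above the untreated level.

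Copies of the snRNAs, the RNA parts of the spliceosome, lay near equal rates after both enzymes, and none passed in either direction. The dominant copy of U1, which pairs with 5′ splice sites, lies on scaffold 1 (2523679 to 2523838, plus strand) and held 83.2% of snRNA counts. It had 370, 258 and 512 TPM after RppH and 375, 330 and 282 TPM after Dcp, against 0.653, 0.239 and 0.605 TPM untreated. RppH was higher in RNA sample 3 only (log2 difference 0.16, SE 0.35, edgeR adjusted p = 0.709). U2 RNA base-pairs with the intron branch site. Its copy on scaffold 79 had 25.5, 15.8 and 30.1 TPM after RppH and 29.97, 24.9 and 17.1 TPM after Dcp (log2 difference −0.03, SE 0.59, edgeR adjusted p = 0.97). A second U2 copy, on scaffold 29, had 14.4, 18.0 and 14.3 TPM after RppH and 21.2, 17.7 and 13.2 TPM after Dcp (log2 difference −0.14, SE 0.62, adjusted p = 0.855 in edgeR).

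The U4 copy on scaffold 12, whose RNA pairs with U6 before the spliceosome is activated, had 2.77, 1.36 and 2.01 TPM after RppH and 1.68, 1.298 and 1.28 TPM after Dcp (log2 difference 0.48, SE 0.90, edgeR adjusted p = 0.66). The only tested U5 copy, on scaffold 31, had 17, 3 and 24 counts after RppH and 23, 7 and 1 after Dcp, so its direction turned in RNA sample 3. Copies of low count spread further, and the fitted log2 differences of the 18 copies ran from −2.29 to 2.27. The U1 copies on scaffold 249 starting at 154004 and 138403 had the lowest log2 differences with at least 50 counts, −0.80 and −0.40. Chosen after their values were seen, a U1 copy on scaffold 79 had 17, 6 and 10 counts after RppH and 1, 2 and 4 after Dcp. A U4 copy on scaffold 23 starting at 878570 had 1, 3 and 6 after RppH and 6, 9 and 10 after Dcp. They were the snRNA copies whose groups did not overlap, in opposite directions, and neither passed (adjusted p = 0.169 and 0.398 in edgeR). Reads of near-identical U1 or tRNA copies may be split among them, so values of single copies are uncertain.

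The share of RppH in the summed rate of both treatments is 50% where rates are equal. Its median was 93.6% over tested tRNA genes, 88.9% over microRNA loci and 51.9% over snRNA copies. The 95% counting interval (exact Clopper-Pearson) lay above 50% for 240 of 262 tRNA genes, 57 of 68 microRNA loci and 6 of 18 snRNA copies. It lay below 50% for 0, 0 and 4. A share of at least 90% was found for 178 tRNA genes, 28 microRNA loci and 0 snRNA copies. The share was 94.95% (interval 92.98 to 96.5) for ccm-MIR12481 and 67.4% (60.3 to 74.0) for ccm-MIR12490b. These intervals cover counting error only and leave out the spread between libraries. Many loci reached the minimum count in the RppH libraries but not in the Dcp libraries. They were 197 of 262 tRNA genes, 36 of 68 microRNA loci and 2 of 18 snRNA copies. Such loci have a high RppH share by selection, so the shares describe only loci that passed the minimum. How far this raised the median shares was not tested.

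The RNA samples differed in the size of the effect. The median log2 ratio per locus in RNA samples 1 to 3 was 2.55, 3.03 and 3.89 for tRNA genes, 1.55, 1.80 and 4.13 for microRNA loci and −0.23, −0.35 and 0.84 for snRNA copies, with 0.5 added to each count. RNA sample 3 was the highest for every class. RppH was above Dcp in 3 of 3 RNA samples at 243 of the 348 loci (percent called 69.8), of which 198 were tRNA genes, 43 microRNA loci and 2 snRNA copies. It was below Dcp in all 3 at 2 loci, chosen after their values were seen: the U4 copy on scaffold 23 named above and ccm-MIR12497b, with 2, 1 and 4 counts after RppH and 2, 4 and 5 after Dcp.

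**Figure D5:**
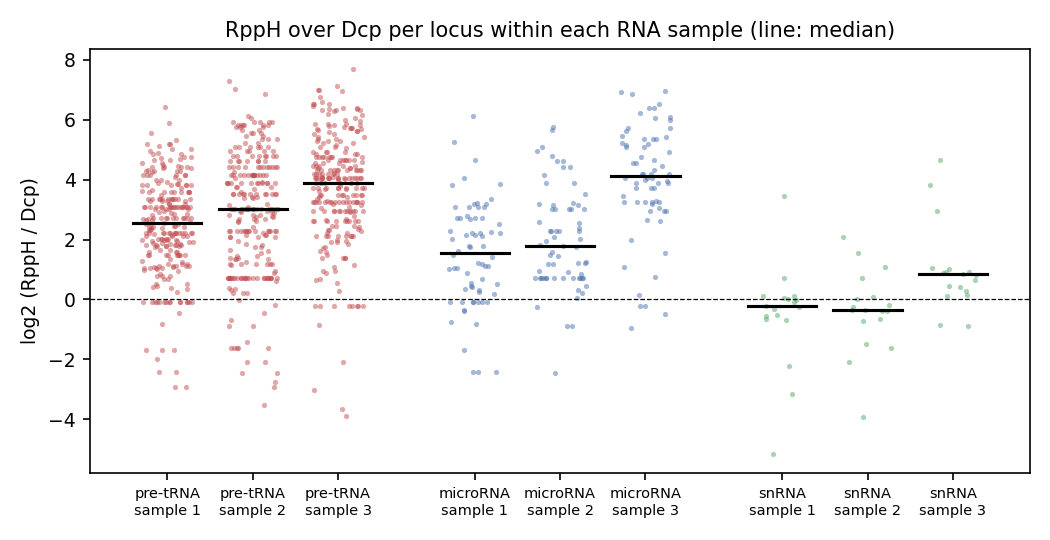
log2 of RppH over Dcp for each tested locus within RNA samples 1, 2 and 3, by class, with a line at the median and 0.5 added to each count. Medians for pre-tRNA are 2.55, 3.03 and 3.89, and snRNA scatters around 0 except in RNA sample 3 (0.84).

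To ask how loci differ from their own class, each was tested with its class total as the library size. Of 348 loci, 2 were above their class (percent called 0.575) and 1 below it (percent called 0.287), by edgeR with the RNA sample as a block. tRNA9-SerAGA exceeded the pre-tRNA total by 1.82 on the log2 scale (SE 0.26, edgeR adjusted p = 1.83e-09). Its RppH over Dcp difference was 4.52, against a median of 3.74 over the tested tRNA genes. Larger departures from the class at loci of fewer counts did not pass in edgeR. Among them were tRNA7-LeuTAG at 7.41 (SE 2.23, adjusted p = 0.0691) and ccm-MIR12487b at 7.24 (SE 2.31, adjusted p = 0.103). ccm-MIR12481 exceeded the microRNA total by 1.93 (SE 0.47, edgeR adjusted p = 0.00508), and by 1.63 (adjusted p = 0.893) when RNA sample 1 was left out and 2.13 (adjusted p = 0.868) when RNA sample 2 was, where the call was lost. tRNA14-AlaTGC lay below the pre-tRNA total by −1.14 (SE 0.10, edgeR adjusted p = 1.08e-27). It is itself a large part of that total, and with its own counts left out the difference was −1.80 (adjusted p = 6.25e-23). The test does not subtract untreated counts, of which tRNA14-AlaTGC held 584, 352 and 397 of the 904, 604 and 581 for pre-tRNA. How far this background lowers its ratio was not tested. tRNA9-SerAGA was still above the total so reduced (1.19, adjusted p = 0.00812). The dominant U1 copy makes up most of the snRNA total, which limits how far it can depart from it.

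The remaining 368 loci fell below 10 counts over the 6 libraries, and 73 of them had 0. Together they held 1068 counts after RppH and 193 after Dcp. Just inside the minimum, 19 loci with exactly 10 counts had 149 counts after RppH and 41 after Dcp in sum. Just outside it, 18 loci with 9 counts had 131 after RppH and 31 after Dcp.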

How the data were processed

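The authors deposited raw counts of full-length transcripts per interval and library and TPM values, per the file headers. Per the submitters' processing notes cutadapt, Bowtie2, SAMtools and bedtools were used, and the rule for reads that match several gene copies was not found in the sources read here. Coordinates are on scaffolds that the deposited table names Ccam0.32, counted from 1. The deposited TPM was the count divided by 1 constant per library (largest relative deviation 3.28e-15), which gave the library total. Each count thus adds between 0.0217 and 0.0400 TPM, depending on the library. Counts were summed per locus and tested with edgeR 4.0.16 (R 4.3.3), with recovered totals as offsets. limma 3.58.1 and DESeq2 1.42.0 were alternatives. For totals of a class, exact permutation over the libraries was used.

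Members, lists and tests were chosen with earlier results of these data known. Loci named in the text were, per class, the 5 with most counts and, with at least 50 counts, the 4 highest and 4 lowest log2 differences, then those departing from their class. Others are stated as chosen after their values were seen. Libraries were paired because the labels give same-numbered libraries the same RNA. Deviations from the group means correlated by 0.03, 0.11 and −0.27 in pairs 1 to 3. Between libraries of different number the correlations ran from −0.35 to 0.28, so the counts themselves did not set the pairs apart.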

Additional observations from a re-analysis of the deposited data

How the results depend on the processing

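The RNA sample as a block was the chosen fit, and with no replicate block the counts of loci higher after RppH were 232 in all, 188 tRNA genes, 43 microRNA loci and 1 snRNA copy. Loci departing from their class then numbered 9. For class totals and ratios the block changed no value, and its exact p could not go below 0.25.

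With TMM 6 loci were higher and 11 lower (5 tRNA genes and 1 microRNA locus higher), and with median of ratios 16 higher and 10 lower (14 and 2). Each of these scalings changed the sign of 15 of the 35 loci named by rule. TMM and median of ratios gave log2 differences of −0.53 and −0.46 for tRNA14-AlaTGC on scaffold 16, −1.18 and −1.14 for tRNA21-GluCTC, −0.72 and −0.63 for tRNA7-LeuCAA, −0.58 and −0.51 for tRNA8-ArgACG and −0.52 and −0.44 for tRNA13-iMetCAT. For microRNA loci they gave −0.41 and −0.34 (ccm-IIM-12a), −1.45 and −1.40 (ccm-MIR12490b), −1.03 and −0.92 (ccm-IIM-63b), −0.80 and −0.72 (ccm-MIR12490a) and −0.82 and −0.75 (ccm-IIM-93). For snRNA they gave −1.93 and −1.86 (U1, scaffold 1, start 2523679), −1.82 and −1.75 (U1, scaffold 1, start 2337806), −1.87 and −1.80 (U1, scaffold 29), −1.29 and −1.17 (U5) and −1.61 and −1.53 (U4, scaffold 12). These scalings shift every locus by construction. limma on log2(TPM + 1) called 157 (124 tRNA genes, 33 microRNA loci), and single intervals gave 44 (34 tRNA intervals). With all 9 libraries in the blocked fit 64 loci were higher, with no filter 72 of 643, and with at least 30 counts 89 of 180. With at least 30 counts 5 loci departed from their class.

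Leaving out an RNA sample in the blocked fit gave 0 to 65 loci higher, 0 to 55 tRNA genes, 0 to 10 microRNA loci and 2 to 5 loci departing from their class. Leaving out a library in the unblocked fit gave 169, 226 and 135 loci higher (140, 180 and 119 tRNA genes, 29, 45 and 16 microRNA loci) without RppH libraries 1 to 3. Without Dcp libraries 1 to 3 it gave 208, 158 and 141 (167, 129 and 116 tRNA genes, 41, 29 and 24 microRNA loci). Of snRNA copies 0 to 1 were higher and 0 to 1 lower. The snRNA total differed by −0.61 log2 as a share of the listed counts, and by −0.21 to 0.39 when an RNA sample was left out. The ratio of pre-tRNA to microRNA then differed by −0.035 to 0.90. The cause was not tested.

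The other sign changes were at loci that did not pass. Leaving out an RNA sample gave −0.19 to 0.42 (U1, scaffold 1, start 2523679), −0.039 to 0.50 (U1, scaffold 1, start 2337806), −0.19 to 0.53 (U1, scaffold 29), −0.44 to 0.29 (U2, scaffold 79), −0.26 to 0.070 (U2, scaffold 29), −0.52 to 1.70 (U5), −0.84 to 0.12 (U1, scaffold 249, start 138403) and −0.52 to 0.28 (U1, scaffold 102). Without the block, U1 on scaffold 102 was at 0.010, and at 0.098, 0.27 and 0.34 without RppH libraries 1 or 2 or Dcp library 1. U1 on scaffold 249 was at 0.10, 0.38 and 0.24 without RppH libraries 1 or 2 or Dcp library 3. U2 on scaffold 79 was at 0.21, 0.18 and 0.015 without RppH library 2 or Dcp libraries 1 or 2, and U2 on scaffold 29 at 0.012 without Dcp library 1. Without RppH library 3, ccm-MIR12490b was at −0.070 and the U1 copies on scaffold 1 at −0.067 and −0.034, and without Dcp library 3 U5 was at −0.076. Over all alternatives, 506 values of loci named by rule kept direction and side of the threshold, 52 fell short, 17 newly passed and 55 changed sign.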
